A study of Homo sapiens with 3 samples.

Results

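The genes described here are 9 regulators of the G1 phase of the cell cycle: the inhibitors CDKN2A and CDKN1A, the cyclin CCND1, the kinases CDK4 and CDK6, the repressor RB1, the transcription factors E2F1 and MYC, and the p53 antagonist MDM2. They were taken by gene name from a table of 13247 genes, and 9 of 9 were found in it. The table comes from 3 replicate RIP-seq libraries, in which RNA bound to DDX49, an RNA helicase of the DEAD-box family that carried a Flag tag, was captured after ultraviolet cross-linking and sequenced. The cells were HHL5, an immortalised human liver line that the labels call embryonic liver cells of WT genotype. All 3 libraries carried the Flag-DDX49 construct and 24 h of OA/PA (2/1, 1.5 mM), which by the usual abbreviations are oleic and palmitic acid. There was 1 group, and an input, a mock pull-down or untreated cells were not analysed here. A level therefore joins a transcript's abundance in the cell with its recovery by DDX49, and fewer cells with a transcript cannot be told apart from less of it per cell.

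The G1 checkpoint decides whether a cell commits to copying its DNA. D-type cyclins activate CDK4 and CDK6, which phosphorylate the RB1 protein, and RB1 then releases E2F factors that switch on genes of DNA replication. The INK4 inhibitors, such as the p16 product of CDKN2A, block CDK4 and CDK6, while CDKN1A (p21), a target of p53, blocks CDK2 complexes. A second product of CDKN2A, ARF, restrains MDM2, the ubiquitin ligase that degrades p53. MYC drives growth and cell cycle entry. HHL lines were made by introducing the E6 and E7 genes of a human papillomavirus. E7 binds RB1 and frees E2F, and E6 directs p53 to destruction through the cellular ligase UBE3A. Both act on proteins, and neither viral gene was measured here.

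The DNA before the starts of some of these genes was searched for letters that factors of the circuit bind. E2F factors bind letters such as TTTGGCGC, and MYC with its partner MAX binds the E-box CACGTG. Windows of 250 bases before the start of the gene, from RefSeq on GRCh38.p14, were on hand for 7 of the 9 genes and were searched on both strands for TTTCCCGC, TTTCGCGC, TTTGCCGC and TTTGGCGC and for CACGTG. The windows of RB1 and CDKN1A precede a start inside the span of the gene, not its first base, so they say nothing of the DNA before that base. The E2F letters occurred in the windows of E2F1 and MDM2, and in 3.72% of the 15843 windows of protein-coding genes. The E-box occurred in the window of CDK4 only, and in 7.84% of all windows. The windows of E2F1, a gene known to be under E2F control, and of CDK4, a known target of MYC, are shown in coding direction with the matches in capitals.
E2F1 (chr20:33686386-33686635, minus strand): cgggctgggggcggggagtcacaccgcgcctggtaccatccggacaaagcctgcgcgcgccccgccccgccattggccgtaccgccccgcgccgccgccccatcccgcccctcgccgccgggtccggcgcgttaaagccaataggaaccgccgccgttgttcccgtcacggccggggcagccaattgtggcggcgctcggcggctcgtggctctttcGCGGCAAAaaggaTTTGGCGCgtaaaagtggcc
CDK4 (chr12:57752311-57752560, minus strand): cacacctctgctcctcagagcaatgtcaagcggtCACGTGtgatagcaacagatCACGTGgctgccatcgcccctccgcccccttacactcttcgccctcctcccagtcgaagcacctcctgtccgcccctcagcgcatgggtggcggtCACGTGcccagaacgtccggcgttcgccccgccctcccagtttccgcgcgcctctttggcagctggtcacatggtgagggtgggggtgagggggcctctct
In E2F1 the matches began at positions -33 (TTTGCCGC, on the opposite strand) and -20 (TTTGGCGC) from the start of the gene, and in CDK4 the E-boxes began at -216, -196 and -101. The single match of MDM2, TTTGGCGC on the opposite strand, began at -232. No match overlapped another. Matches of letters are a description of the sequence, and binding was not measured in these libraries.

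The libraries held 2023133, 1461858 and 1096586 counts in replicates 1, 2 and 3, and levels are given as CPM, for which the counts of a library are scaled to add up to 1000000. A single count equalled 0.494, 0.684 and 0.912 CPM. DDX49 itself, which includes RNA of the construct if that was counted, took 3.53%, 4.15% and 5.09% of the counts. Nothing names separate cultures behind the replicates, so p-values measure the spread between these libraries, which may be technical. No transcript length was used, so CPM compares shares of reads and not numbers of molecules between genes. Of 22 hepatocyte markers 7 were in the table, and 6 of them lay below 1 CPM, among them the fibrinogen genes FGA and FGB with 0 counts, while the urea cycle enzyme CPS1 had 1726 ± 45.9 CPM (SD, n = 3 here and throughout). Of 6 hepatoblast markers 0 were in the table. The keratin KRT7, a biliary marker, had 5813 ± 143 CPM and its biliary companion KRT19 had 0 counts. Of 8 biliary markers 6 were in the table, with a median of 7.65 CPM. The mesenchymal marker VIM had 1104 ± 52.5 CPM. Of 10 stellate and fibroblast markers, VIM included, 8 were in the table, with a median of 4.94 CPM, and COL1A1 had 0 counts. Save for CPS1, the liver markers measured thus do not bear out the labelled cell type. With no input analysed, these levels cannot settle it, and their part in the results was not tested. Of 14 proliferation markers 13 were in the table and 0 of these lay below 1 CPM, with the cycling marker MKI67 at 1446 ± 50.8 CPM. AURKA and AURKB of the same list lay far lower, with 10.8 ± 2.53 CPM and with 3, 5 and 0 counts.

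All 9 genes were present in every library, with MYC the most frequent in reads and RB1 the least. Together the 9 genes took 1857 ± 17.1 CPM, and MYC alone held 46.8% of their counts. A mean of at least 100 CPM was reached by MYC, CCND1, CDKN2A and CDK6, which is 4 of the 9 genes (44.4%), against 15.5% of all genes in the table. The lowest member, RB1, lay near the median of the 10815 genes of at least 1 CPM, which was 27.0 CPM, and the other 8 lay above that median. The median member had 92.1 CPM. On the log2 scale, with 1 CPM added, the median of the members lay 1.75 ± 0.13 above that of these genes, with 1.65, 1.71 and 1.89 in replicates 1, 2 and 3. No test was made of this shift, since the genes were chosen for their role and with earlier results known, and since 3 libraries cannot give a sign-flip p below 0.25.

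**Figure D1:**
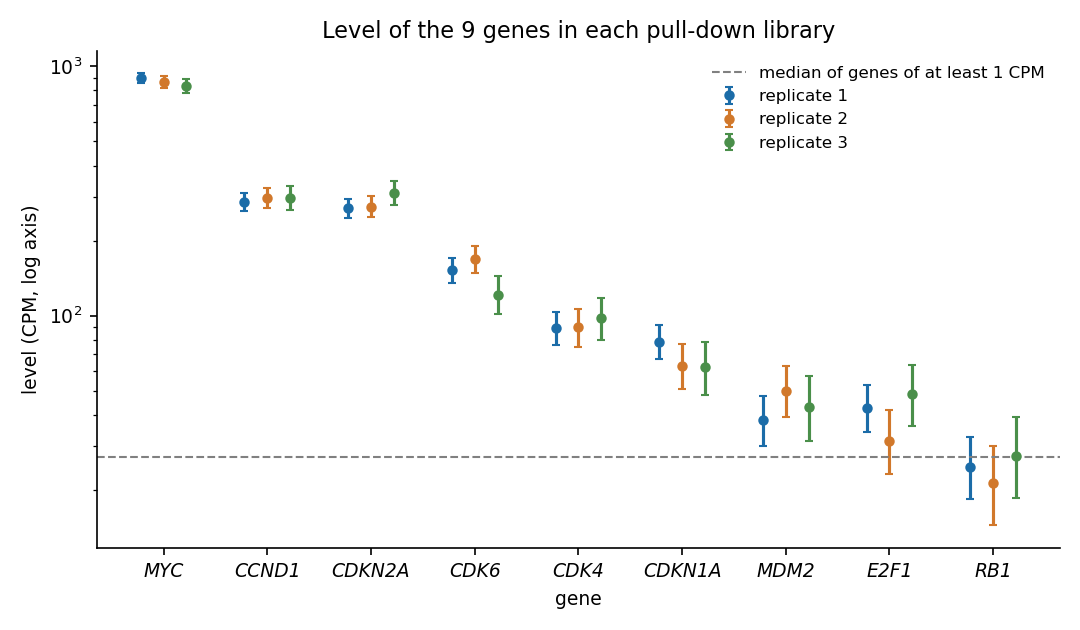
Level of each gene in CPM (log axis) in the 3 libraries, with exact Poisson 95% intervals that cover counting error only. MYC lies between 834 and 895 CPM and RB1 between 21.2 and 27.4 CPM, beside a dashed line at 27.0 CPM, the median of genes of at least 1 CPM.

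Among the inhibitors, the reads of CDKN2A were frequent and those of CDKN1A were intermediate. CDKN2A (ENSG00000147889, chromosome 9, 21967752 to 21995324, hg38) had 544, 400 and 341 counts, or 269, 274 and 311 CPM in replicates 1, 2 and 3, with a mean of 284 ± 23.0. Replicate 3 was the highest and the other two lay close together, and the intervals of the 3 libraries overlapped. A chi-square test that set each count against its library total, with p adjusted over the 8633 genes with enough counts, called 19.6% of those genes as different between libraries, and CDKN2A was not called (adjusted p of 0.213). A total of 95.2% of genes in the table had a lower mean. The counts are per gene, so p16 and ARF transcripts, which share exons but read them in different frames, cannot be told apart. Its neighbour CDKN2B, which encodes the related INK4 inhibitor p15, had 181, 179 and 162 CPM. On the other side of CDKN2A, MTAP, an enzyme of the methionine salvage pathway that is often deleted together with CDKN2A in tumours, had 33.1, 25.3 and 41.0 CPM. All 3 genes of this stretch of chromosome 9 were thus read in every library.

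CDKN1A (ENSG00000124762, chromosome 6, 36676463 to 36687332) had 159, 92 and 68 counts, or 78.6, 62.9 and 62.0 CPM, with a mean of 67.8 ± 9.32. Replicate 1 was the highest and the other two were nearly equal, with the highest library 1.27 times the lowest. Of the other inhibitors on the list, CDKN1B (p27) had 72.1 ± 10.7 CPM, CDKN2C (p18) 56.2 ± 4.16, CDKN1C (p57) 15.3 ± 5.54 and CDKN2D (p19) 5.45 ± 1.22. All 7 CDK inhibitors of the list were in the table, and 0 of these lay below 1 CPM. Of the 6 with enough counts to be tested, 0 were called between libraries, beside 19.6% of all genes tested. No list was tested against that share, here or below.

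Of the cyclin and kinase genes among the 9 members, CCND1 varied little between libraries and CDK6 was the only one called. CCND1 (ENSG00000110092, chromosome 11, 69641156 to 69654474), the cyclin D1 gene, had 580, 433 and 325 counts, or 287, 296 and 296 CPM, a mean of 293 ± 5.54. Its libraries differed by less than counting error alone would give, with a coefficient of variation (SD over mean of the CPM values) of 1.89% against 4.88% for counting. That is the lowest of the 9 on this scale, but with TMM scaling the SD was 11.1 CPM for CCND1 and 13.8 CPM for MYC, whose level is higher, so MYC was then the steadier. Cyclin D3 (CCND3) had 233 ± 13.2 CPM, while cyclin D2 (CCND2) had 2, 0 and 1 counts. These 3 genes encode cyclins that serve the same kinases, and the D2 gene had at most 2 counts in a library.

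CDK4 (ENSG00000135446, chromosome 12, 57747727 to 57752310), whose window with 3 E-boxes is shown above, had 180, 131 and 107 counts, or 89.0, 89.6 and 97.6 CPM, a mean of 92.1 ± 4.79. CDK6 (ENSG00000105810, chromosome 7, 92604921 to 92836573) had 307, 246 and 133 counts, or 152, 168 and 121 CPM, a mean of 147 ± 23.8. Replicate 3 was the lowest for CDK6 and the highest for CDK4, while replicate 2 was the highest for CDK6. The chi-square test gave CDK6 an adjusted p of 0.0489 and CDK4 an adjusted p of 0.820. With TMM or DESeq2 scaling, a lower count minimum, DDX49 out of the totals, or without replicate 2 or replicate 3, 0 members were called. In that order, these settings called 18.6%, 18.5%, 17.1%, 19.2%, 16.6% and 5.80% of all genes tested. CDK6 stayed called with a count minimum of 100 and without replicate 1, beside 22.7% and 6.77% of all genes tested.

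Further along the pathway, CDK2, the kinase that cyclin E and cyclin A activate, had 117 ± 15.2 CPM. Its cyclin CCNE1 had 6, 5 and 11 counts, and CCNE2 had 13.3 ± 3.67 CPM. Of 14 G1 cyclins, kinases and their helpers 14 were in the table, the kinase chaperone CDC37 (699 ± 5.12 CPM), CCND1 and CCND3 were highest, and CCND2 was the only one below 1 CPM. Of the 12 tested, 2 were called between libraries, CDK6 and the S phase cyclin CCNA2, whose 74.1, 69.1 and 42.9 CPM were also lowest in replicate 3. Over all genes tested 19.6% were called, and replicate 3 was lowest for 41.3% of genes of at least 1 CPM.

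The repressor RB1 had the fewest reads of the 9 genes, and its partner E2F1 was close to MDM2. RB1 (ENSG00000139687, chromosome 13, 48303751 to 48481890) had 50, 31 and 30 counts, or 24.7, 21.2 and 27.4 CPM, a mean of 24.4 ± 3.09. It lay above 57.3% of the genes in the table, and its libraries, whose intervals overlapped, differed by less than counting error alone would give. Its relatives RBL2 (p130) and RBL1 (p107) had 29.95 ± 5.14 and 7.69 ± 1.35 CPM. E2F1 (ENSG00000101412, chromosome 20, 33675477 to 33686385), whose window with E2F letters is shown above, had 86, 46 and 53 counts, or 42.5, 31.5 and 48.3 CPM, a mean of 40.8 ± 8.57. This was the widest relative spread among the 9 genes, with the highest library 1.54 times the lowest and replicate 2 lowest, yet it did not pass the test (adjusted p of 0.215). Of the other activating E2F genes, E2F3 had 63.5 ± 5.35 CPM and E2F2 25.4 ± 5.07, and the repressive E2F4 had 66.1 ± 5.78.

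The list of pocket proteins, E2F factors and partners in the DREAM complex, which represses cell cycle genes in resting cells, stood close to the median of genes of at least 1 CPM, while the genes that E2F switches on stood above it. Of the 19 genes of that list 19 were in the table, with a median of 25.4 CPM. On the log2 scale that median lay 0.62 above all genes of the table, and against genes of at least 10 CPM the difference was -0.80. MYBL2, which replaces the repressive partners in cycling cells, was highest (592 ± 39.4 CPM), followed by the E2F partner TFDP1 (130 ± 23.9) and the histone chaperone RBBP4 (117 ± 13.7). E2F8 and LIN37 lay below 1 CPM, and 3 of 16 tested genes were called between libraries, beside 19.6% of all genes tested. Of 32 E2F targets 30 were in the table, 0 of these lay below 1 CPM and 17 reached 100 CPM, and the median of 123 CPM was 2.18 ± 0.06 log2 units above that of the background genes. The replication helicase subunits MCM3 (699 ± 27.9 CPM) and MCM7 (534 ± 53.3) led it together with MYBL2. Of 29 tested genes of that list 6 were called, beside the same 19.6%. CDK1 and UHRF1 of that list were not analysed here.

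In the branch of MDM2, the ligase itself had an intermediate share of reads. MDM2 (ENSG00000135679, chromosome 12, 68808172 to 68850686) had 77, 73 and 47 counts, or 38.1, 49.9 and 42.9 CPM, a mean of 43.6 ± 5.97. Replicate 2 was the highest, and the spread of 13.7% was close to the 12.7% that counting gives. The counts of its relative MDM4 were 11, 4 and 5. The checkpoint kinase CHEK1, which guards replicating DNA and whose span overlaps that of ACRV1, had 1, 0 and 0 counts.

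UBE3A, the ligase that papillomavirus E6 recruits, had 47.0, 39.0 and 38.3 CPM, and the deubiquitinase USP7, which stabilises MDM2 and p53, had 103, 109 and 109 CPM. Of 17 genes on the list of p53 pathway regulators 16 were in the table, with a median of 34.8 CPM, and the acetyltransferases CREBBP (245 ± 35.3 CPM) and EP300 (144 ± 30.4) were highest. CREBBP and EP300 were called between libraries, 2 of 13 tested, beside 19.6% of all genes tested. Both were lowest in replicate 3, as were 41.3% of genes of at least 1 CPM. RCHY1 was not analysed here.

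Of 28 known p53 targets, CDKN1A and MDM2 included, 24 were in the table and their median, 21.8 CPM, lay 0.28 ± 0.07 log2 units below that of the background genes. With all genes of the table as the background it lay above, by 0.36. The splicing regulator ZMAT3 (183 ± 18.5 CPM), the death receptor TNFRSF10B (163 ± 8.47) and the junction protein PERP (156 ± 18.1) were highest, the repair protein XPC and CDKN1A came next, and the growth arrest gene GADD45A had 7, 1 and 1 counts. Of 20 tested 3 were called, beside 19.6% of all genes tested, and FAS, TIGAR and SPATA18 were not analysed here.

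MYC was the member with most reads and stood among the genes with the largest shares of reads in the pull-down. MYC (ENSG00000136997, chromosome 8, 127735434 to 127742951) had 1811, 1261 and 915 counts, or 895, 863 and 834 CPM, a mean of 864 ± 30.4. It took rank 138 of 13247 genes. Its highest library was 1.07 times the lowest, and the 3 counts did not pass the test (adjusted p of 0.367). Its relatives MYCN and MYCL had 1, 1 and 0 and 3, 0 and 0 counts, so of the 3 MYC genes in the table MYC alone was read at more than 3 counts. MAX, the partner through which MYC binds DNA, had 15.8, 15.7 and 23.7 CPM.

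Among the 13 genes of the MYC network, MLXIP (134 ± 18.7 CPM) and the repressor MGA (132 ± 13.9) followed MYC, MYCN, MYCL and MLXIPL lay below 1 CPM, and 0 of 9 tested genes were called. Of 23 known MYC targets 21 were in the table, with a median of 120 CPM, led by the nucleolar proteins NCL (1618 ± 105 CPM) and NPM1 (1538 ± 94.7) and the glycolytic enzyme LDHA (1138 ± 69.4). CDK4 is one of these targets and lay below their median. NOP56, whose span overlaps 6 other genes, small RNA genes among them, and RCC1, whose span overlaps 5, lay below 1 CPM. Of 18 MYC targets tested 5 were called, and TERT and DKC1 were not analysed here. The share called over all genes tested, to be read beside both lists, was 19.6%. NPM1 and LDHA have processed copies in the genome, and the rule for shared reads is not known here.

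**Figure D2:**
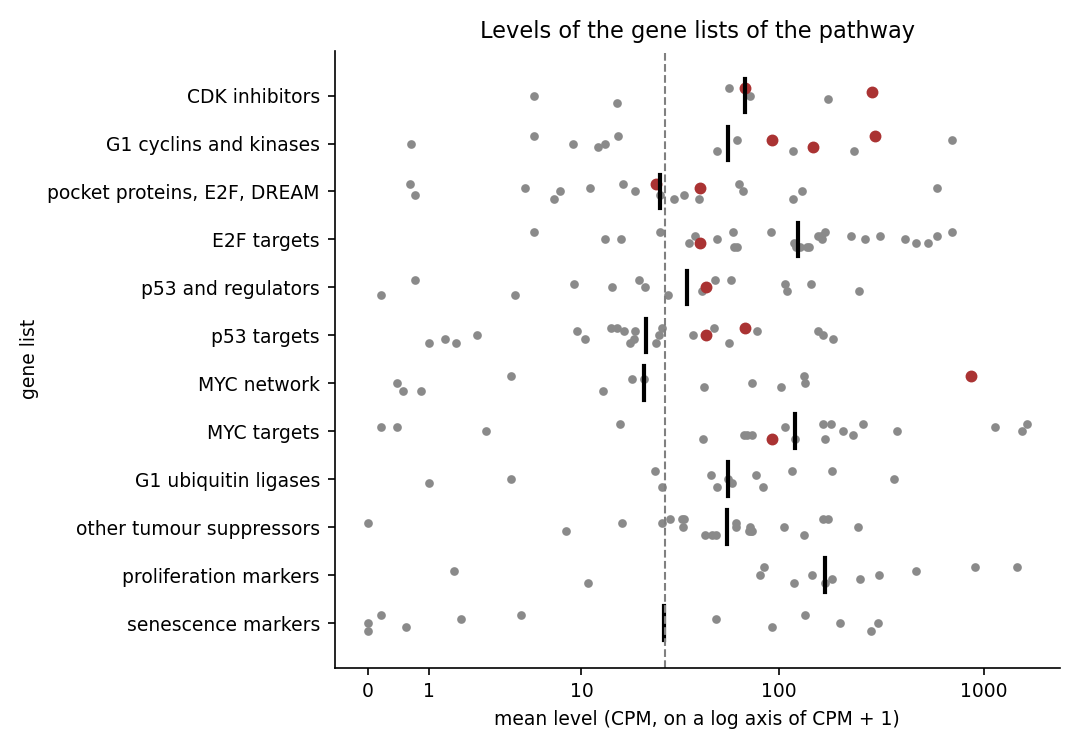
Mean level of each gene in CPM, on a log axis of CPM + 1, by gene list, with the 9 genes in red, other genes in grey, the median of each list as a black bar and the median of genes of at least 1 CPM (27.0) as a dashed line. Medians of E2F targets (123 CPM), MYC targets (120 CPM) and proliferation markers (168 CPM) lie to the right of the line, and those of p53 targets (21.8 CPM) and the MYC network (21.1 CPM) to the left.

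Genes that remove G1 regulators and further tumour suppressors lay above the median gene as lists. Of 13 genes for ubiquitin ligases of G1 13 were in the table, with a median of 56.0 CPM. The CUL4 adaptor DDB1 (366 ± 9.60 CPM), its scaffold CUL4A (181 ± 6.85) and SKP1 (116 ± 15.0) were highest, the RING subunit RBX1, whose span overlaps no other gene, had 0, 3 and 1 counts, and 2 of 11 tested were called. SKP2, which marks p27 for removal, had 56.0 ± 5.49 CPM. Of 24 other tumour suppressors 22 were in the table with a median of 54.9 CPM, the chromatin remodeller ARID1A (245 ± 3.08 CPM) and CDKN2B were highest, and 3 of 21 tested were called. Both counts of called genes stand beside 19.6% of all genes tested. The kinase gene STK11 had 0 counts in each library, which by a floor of 3 counts allows up to 1.48, 2.05 and 2.74 CPM, and FHIT and WT1 were not analysed here. The span of STK11 shares 145 bases with that of CBARP, and whether this bears on its count was not tested.

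Proliferation markers had the highest median of the 12 lists, 168 CPM, with the mitotic regulator FOXM1 (903 ± 62.1 CPM) and the helicase subunit MCM2 (466 ± 32.7) after MKI67, and 2 of 12 tested were called. AURKA (10.8 CPM) and AURKB (1.63 CPM) among these markers lay below the median of the background genes. Of 14 senescence markers 12 were in the table. The growth factor binding protein IGFBP7 (304 ± 16.3 CPM) and the chromatin proteins HMGB2 (281 ± 42.9) and HMGB1 (198 ± 29.2), which leave chromatin in senescence, were highest, and 2 of 6 tested were called. For these markers and the proliferation markers, the share called over all genes tested was 19.6%. The secreted factors IL6, IL1A, IL1B and MMP3 of that list lay below 1 CPM, and CXCL8 and MMP1 were not analysed here. The median of that list, 26.7 CPM, is the midpoint between GLB1 (48.7 CPM) and IGFBP3 (4.60 CPM), beside 27.0 CPM for the background genes. On the log2 scale used for the other lists, the difference from the background genes was -0.73 ± 0.13. The list mixes genes that rise and genes that are lost in senescence.

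In order of their reads, the 9 genes ran from MYC through CCND1, CDKN2A, CDK6, CDK4, CDKN1A, MDM2 and E2F1 to RB1. Of the 8 pairs of neighbours in this order, 6 had ranges over the 3 libraries that did not overlap. CCND1 and CDKN2A did overlap, with CCND1 higher in 2 libraries and CDKN2A higher in replicate 3. MDM2 and E2F1 overlapped as well, with MDM2 higher in replicate 2 only. The order is one of read shares, and a longer transcript gives more reads per molecule.

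**Figure D3:**
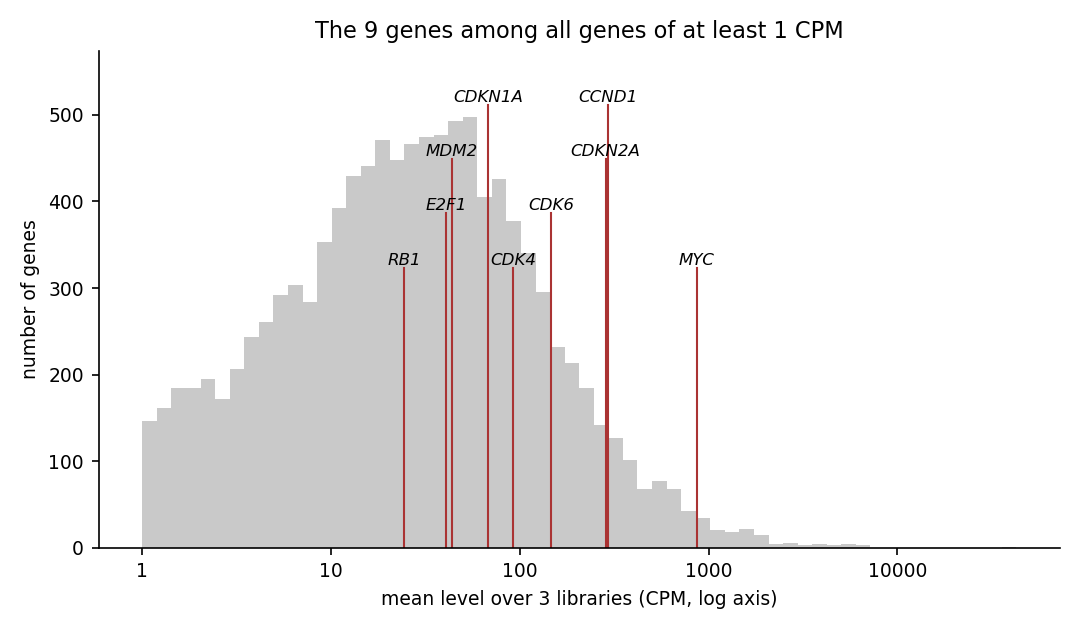
Histogram of the mean level in CPM (log axis) of the 10815 genes of at least 1 CPM, with red lines at the means of the 9 genes; the heights of the lines only separate the names. RB1 (24.4 CPM) stands near the middle of the distribution and MYC (864 CPM) in its upper tail.

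Between replicates CDK6 was the 1 member of 9 that the chi-square test called (11.1%, against 19.6% of all genes tested). In the 6 members CDKN2A, CDKN1A, MDM2, CDK6, E2F1 and MYC the spread was wider than counting error, and in RB1, CCND1 and CDK4 it was narrower. A wider spread than counting error was also found for 67.4% of genes of at least 1 CPM, a share like that of the members. The largest excess was that of CDK6, with a coefficient of variation of 16.2% against 6.81% for counting. Replicate 3 was the highest library for 5 members and replicate 1 and replicate 2 for 2 each, while over genes of at least 1 CPM replicates 1, 2 and 3 were highest for 39.7%, 28.4% and 31.9%. Replicates 1, 2 and 3 were lowest for 4, 2 and 3 members, and for 28.5%, 30.2% and 41.3% of those genes. The intercept-only edgeR fit gave a common coefficient of variation between libraries, beyond counting error, of 14.6%. Among the members its values ran from 8.12% for MYC to 19.05% for RB1, after moderation towards genes of like level. The coefficients given above include counting error, so the 2 kinds cannot be compared directly.

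**Figure D4:**
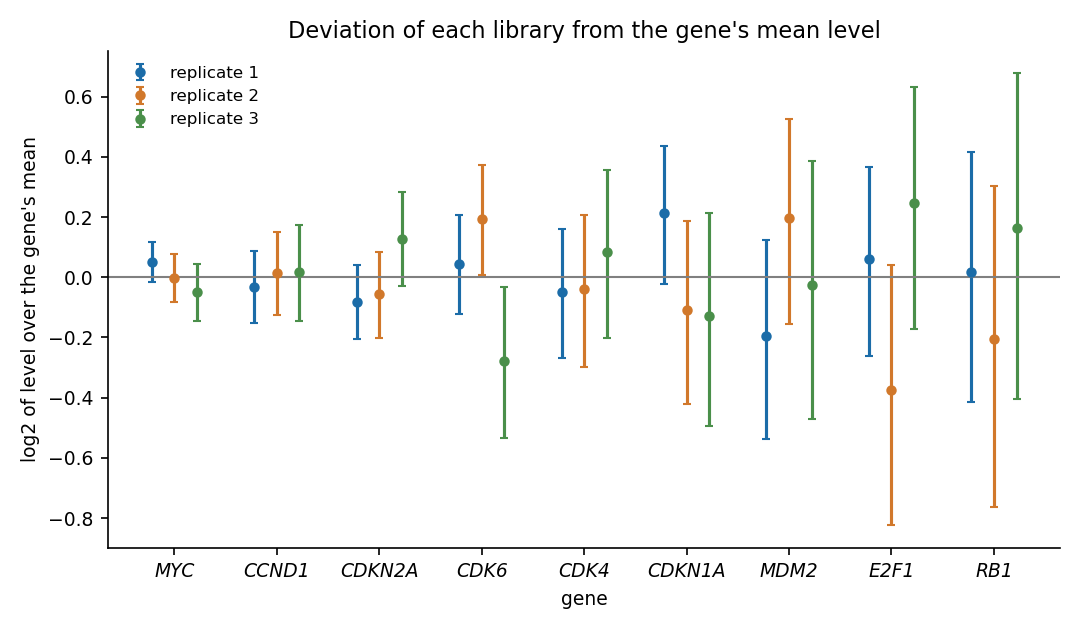
Log2 of the level in each library over the mean of the gene, with exact Poisson 95% intervals. CDK6 shows the interval of replicate 3 wholly below 0 and that of replicate 2 just above it, and the intervals of the other 8 genes all reach 0.

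**Figure D5:**
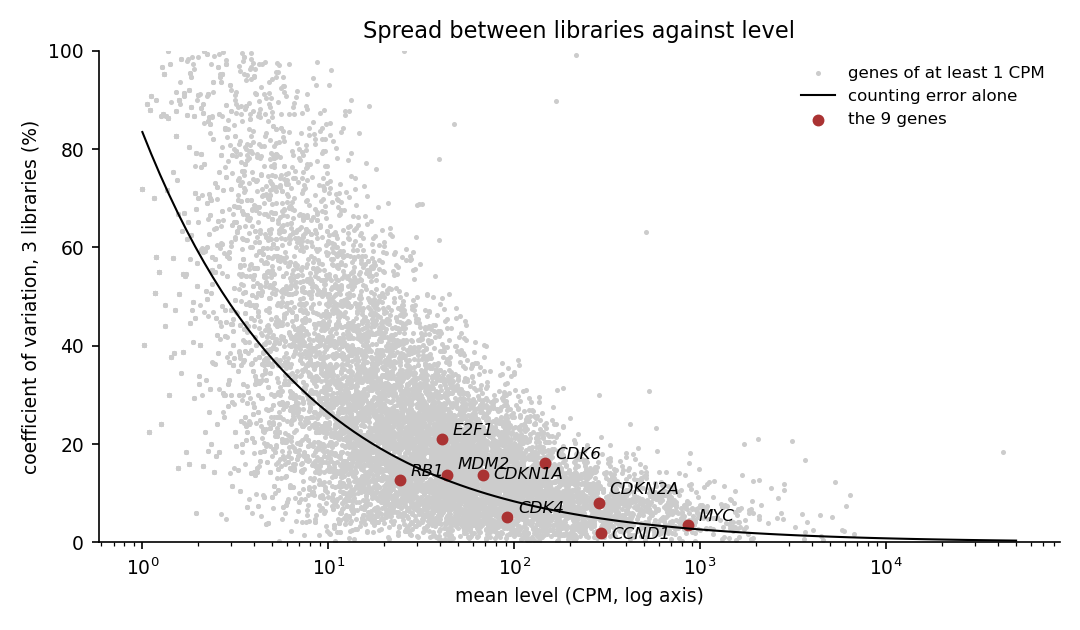
Coefficient of variation over the 3 libraries in percent against mean level in CPM (log axis) for genes of at least 1 CPM (grey, those above 100% not drawn), the 9 genes (red) and counting error alone (line). CCND1 (1.89%), CDK4 (5.21%) and RB1 (12.6%) lie under the line and CDK6 (16.2%) and E2F1 (21.0%) lie clear above it.

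Each member was also set beside the 181 other genes of the 12 lists that were in the table, by the root mean square difference of log2 levels over the 3 libraries. The nearest gene to MYC was FOXM1 (0.08), to CCND1 it was IGFBP7 (0.07), to CDKN2A it was HMGB2 (0.09) and to CDK6 it was MCM6 (0.10). HMGB2, with 257, 255 and 330 CPM, shared with CDKN2A a higher level in replicate 3, and MCM6, with 147, 182 and 133 CPM, shared with CDK6 its highest level in replicate 2 and its lowest in replicate 3. The DNA polymerase subunit POLA1 was nearest to CDK4 (0.11), the tumour suppressor APC to CDKN1A (0.08), the MYC antagonist MXD4 to MDM2 (0.15), the nucleotide kinase NME1 to E2F1 (0.07) and the stress sensor SESN2 to RB1 (0.26). With 3 libraries of 1 group this is a likeness of level above all. The nearest genes were picked by these same 3 values, so a shared pattern over the replicates follows in part from the choice.

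Overlapping genes limit some of these values, since it is not known whether counting used strand. The spans of 6 of the 9 members overlapped another RefSeq gene, and those of CCND1, E2F1 and MYC did not. MDM2 shared 8490 bases with CPM, a carboxypeptidase gene on the opposite strand with 12.1 CPM as its own level, and CDK4 shared 2493 bases with TSPAN31, likewise opposite, which had 6.07 CPM. RB1 shared 55099 bases with LPAR6, a receptor gene on the opposite strand. CDKN2A, CDKN1A and CDK6 overlapped noncoding genes on the opposite strand by 534 (CDKN2B-AS1), 951 (DINOL) and 91 (CDK6-AS1) bases, and CDKN2A and CDK6 also overlapped noncoding genes on their own strand, by 13529 and 24465 bases. Of the 16 genes of the 12 lists that lay below 1 CPM, 11 overlapped another gene, while an overlap was found for 57.5% of all genes below 1 CPM and for 58.9% of those of at least 1 CPM.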

How the data were processed

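Reads of 3 RIP-seq libraries were processed by the authors with CASAVA 1.4 against hg38, per the submitters' processing notes. Not given in the sources used here are the aligner, the counter and its rules for strand and shared reads. The deposited values are raw counts, as the header says, 1 row per gene. A second block of 3 normalised columns was not used. Symbols, spans and promoter windows came from RefSeq (GRCh38.p14), with 12819 genes (96.8%) matched by gene identifier. CKS1B has 2 rows, of which the one its cross-references name was taken.

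Counts were divided by library totals (CPM). Levels per coding length were planned but could not be formed. Each gene with a summed count of at least 30 was tested for a difference between libraries. A chi-square test set its counts against the totals, with Benjamini-Hochberg adjustment over all genes tested and a threshold of 0.05. The test was checked on counts simulated with counting error alone. That check does not cover genes whose spread is wider than counting error. Coefficients of variation are SD over mean CPM, save where an edgeR fit with TMM is named. Lists are described by counts and medians against genes of at least 1 CPM, with a pseudocount of 1. Intervals are exact Poisson 95% and cover counting error only.

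The members, lists and tests were chosen with earlier results of these data known. Named list genes are the 3 highest, those below 1 CPM or not analysed here, and the 1 gene nearest to each member, besides DDX49, CDKN2B and MTAP; other list genes were picked after seeing values. A few genes under this rule are not reported here. Alternatives were other scalings, count minimums, pseudocounts and backgrounds, and leaving out each replicate. Python 3.11.15 (numpy 2.4.6, scipy 1.17.1, pandas 2.3.3, matplotlib 3.10.9) and R 4.3.3 (edgeR 4.0.16, DESeq2 1.42.0) were used.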

Additional observations from a re-analysis of the deposited data

How the results depend on the processing

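Levels of the 9 genes moved by at most 1.11 times under TMM or DESeq2 scaling, without DDX49 in the totals and without each replicate. Of 54 such comparisons 52 stayed within 1 SD. Those without a replicate could not pass it, since the SD comes from the same 3 libraries, so they are no check. MYC (902 CPM) and CCND1 (306 CPM) passed it without DDX49, which raises every level. The CDK6 call gave way to 0 members called when genes with 10 counts in sum were tested, with TMM, with DESeq2 size factors and without DDX49 in the totals (added after seeing the data for the count over all genes), and the number was 0 to 1 when 1 replicate was left out. With 10 counts in sum, TMM, DESeq2 size factors and no DDX49 in the totals, 17.1%, 18.6%, 18.5% and 19.2% of all genes tested were called. With at least 100 counts in sum CDK6 stayed called, beside 22.7% of all genes tested. Over all genes, 474 to 1322 were called with 1 replicate left out, against 1691 (19.6% of those tested). These were 505 without replicate 1 (6.77%), 1322 without replicate 2 (16.6%) and 474 without replicate 3 (5.80%), and the cause was not tested. The median of the members lay 1.62 log2 units above the background with a pseudocount of 5, 2.39 above all genes and 0.97 above genes of at least 10 CPM. Against all genes, the pocket protein and E2F list (0.62), p53 targets (0.36) and the MYC network (0.34) lay above instead of below, and against genes of at least 10 CPM, the p53 pathway regulators lay below (-0.47), since the background's median moves with its filter. No paired analysis was possible because there is 1 group. Members under 50 CPM rest on 30 to 86 counts per library, which limits differences that can be seen there.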
